A study of Mus musculus with 2 samples.

Results

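The genes described here carry a cell through G2 and mitosis. They are 50 genes chosen by symbol for that role, with earlier results of these data known. All 50 were found among the 23284 genes of the series. The data come from macrophages taken from infarcted hearts of C57BL/6 mice on day 3 after the left anterior descending coronary artery was tied. RNA sequencing gave 1 library of cells with a high level of the monocyte surface antigen Ly6C (Ly6Chi) and 1 library of cells with a low level (Ly6Clo). Both populations came from infarcted tissue, and no library of an uninjured heart was analysed here. The labels do not say how many animals or cells went into a library. Each gene has a signed statistic and a rank by the size of that statistic, both given by the authors to compare the libraries. The statistic has no stated unit and is read here as a score. The columns of values for each library bear codes that no sample label carries, so they were not used, and depth per library was not analysed here. No sign of the statistic could therefore be given to a population. Ly6c2, which encodes a Ly6C antigen, is given -1.78, rank 18, by the authors' deposited table and marks the negative side. With 1 library a population there is no replicate error and no test, so every value below describes these libraries alone.

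Before dividing, a cell condenses its chromosomes, builds a spindle from microtubules and holds the separation of sister chromatids until each kinetochore is attached. Cyclin-dependent kinase 1 with cyclins A and B starts these steps, Polo and Aurora kinases carry them on, and the anaphase-promoting complex ends them by marking cyclin B and securin for destruction. Most of the genes are silent in resting cells and are transcribed late in the cycle, so their transcripts are used as marks of dividing cells. In the injured heart, macrophages are supplied both by incoming blood monocytes and by division within the tissue.

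Nearly the whole module lay on the side opposite Ly6c2. The list was chosen with earlier results of these data known, so the shares below describe it and are not independent evidence. In the authors' deposited table, 49 of the 50 genes had a positive statistic, against 40.4% of all genes. A value of at least 0.5 was reached by 47 of them, or 94.0%, against 3.77% of all genes. A value of at least 1 was reached by 18, or 36.0%, against 0.709% of all genes. No mitosis or G2/M gene stood at -0.5 or below, where 0.988% of all genes lay. The median of the 50 genes was 0.94, with quartiles of 0.74 and 1.09, while the median of all genes with a value other than 0 was 0.01. By rank, 26 of the genes were among the first 250 of the authors' deposited table, 40 among the first 500 and 46 among the first 1000. The genes made up 10.9% of the 165 genes at 1 or more and 5.35% of the 878 genes at 0.5 or more. RNA was measured in bulk, so more dividing cells and more of these transcripts per dividing cell cannot be told apart.

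**Figure D1:**
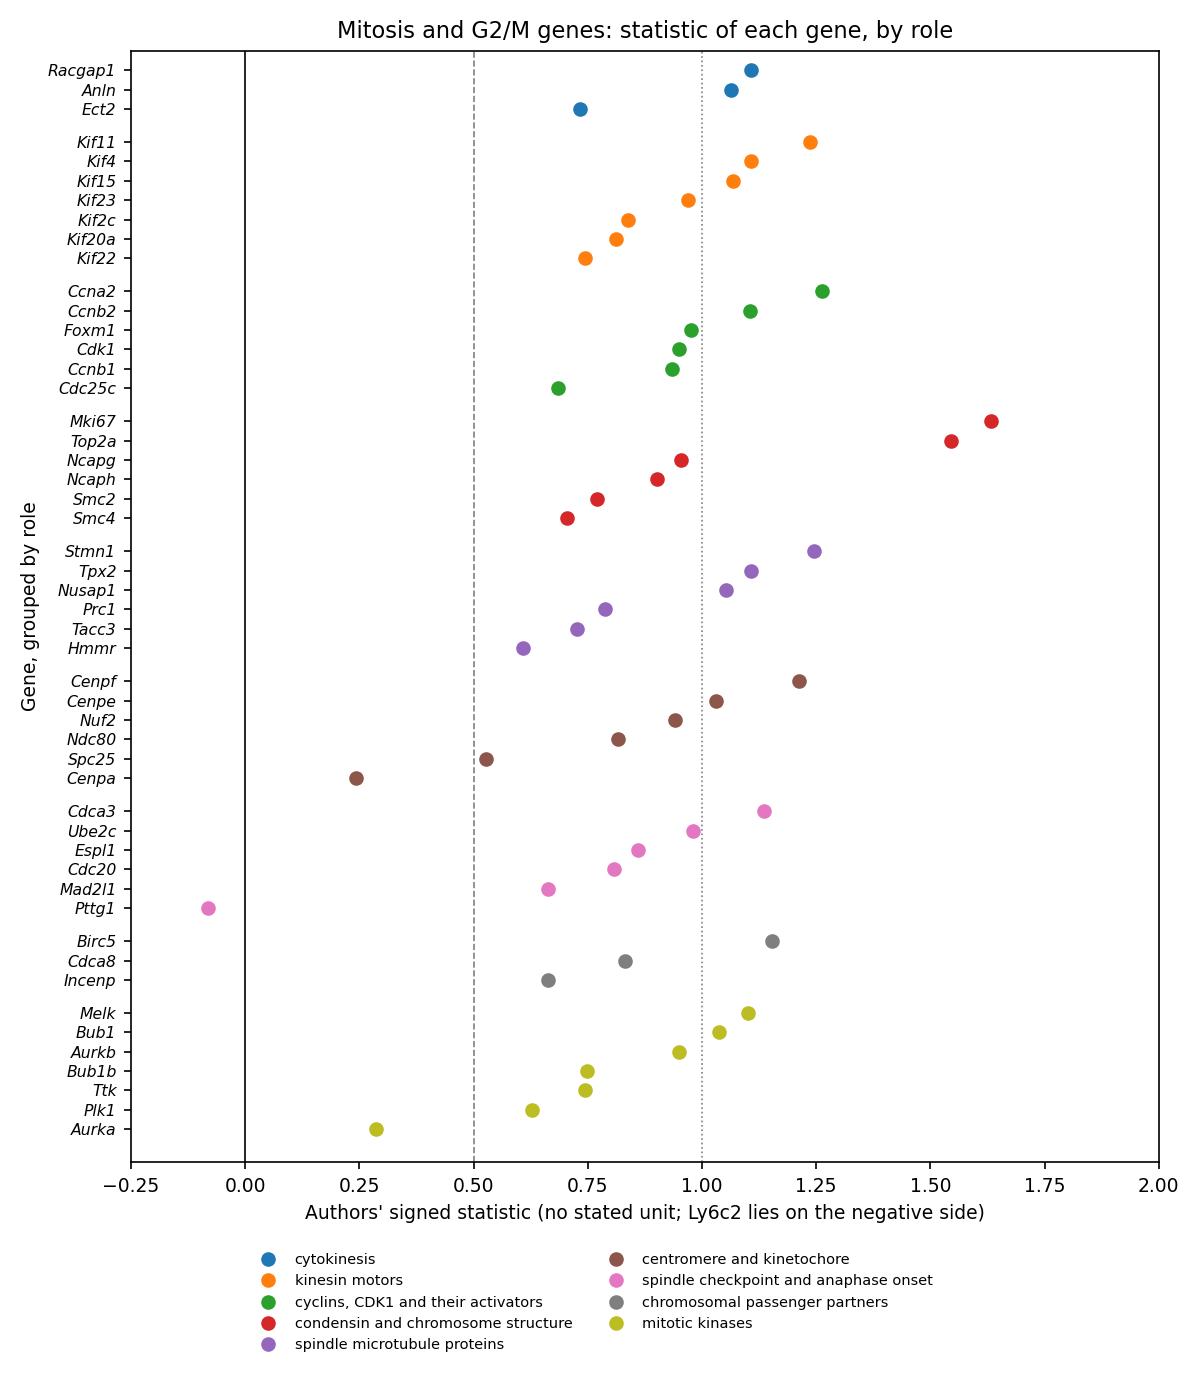
Each point is 1 of the 50 genes, placed by the authors' signed statistic on the horizontal axis and grouped and coloured by role on the vertical axis, with lines at 0, 0.5 (dashed) and 1 (dotted). All genes but Pttg1 lie right of 0, and Aurka and Cenpa are the positive genes left of 0.5.

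Many promoters of these genes hold short sequence words. Genes and words were both chosen for late cell cycle roles, so the shares below are not independent of that choice. The promoter sequences do not depend on these libraries. Late cell cycle genes are known to carry a cell cycle homology region, spelled TTTGAA, which is bound by the MuvB core of the DREAM and MYB-MuvB complexes, and CCAAT boxes, which bind the factor NF-Y. RefSeq promoters on GRCm38.p6, the assembly of mm10, run from 250 bases before to 50 bases after an annotated transcription start. They were found for 41 of the 50 genes, as 43 promoters. The sequences below belong to the highest genes with a promoter, to Cdk1 and Plk1, and to the low genes Aurka and Cenpa. Each is read 5′ to 3′ on the strand of the gene, with the word TTTGAA (reverse complement TTCAAA) and the word CCAAT (reverse complement ATTGG) in capitals. The windows upstream of the start are chr7:135716421-135716579 on the minus strand for Mki67, chr11:99024190-99024389 on the minus strand for Top2a, chr10:69352913-69353112 on the minus strand for Cdk1, chr7:122159235-122159434 on the plus strand for Plk1 and chr5:30666686-30666806 on the plus strand for Cenpa.
Mki67 upstream: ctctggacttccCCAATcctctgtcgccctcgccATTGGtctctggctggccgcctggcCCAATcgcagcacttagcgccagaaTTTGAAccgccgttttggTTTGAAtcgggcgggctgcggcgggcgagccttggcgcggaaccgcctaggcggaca
Top2a upstream: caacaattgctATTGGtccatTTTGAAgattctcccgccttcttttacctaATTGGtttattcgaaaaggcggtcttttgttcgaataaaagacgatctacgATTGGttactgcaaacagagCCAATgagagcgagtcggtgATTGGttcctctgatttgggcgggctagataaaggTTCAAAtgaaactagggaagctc
Cdk1 upstream: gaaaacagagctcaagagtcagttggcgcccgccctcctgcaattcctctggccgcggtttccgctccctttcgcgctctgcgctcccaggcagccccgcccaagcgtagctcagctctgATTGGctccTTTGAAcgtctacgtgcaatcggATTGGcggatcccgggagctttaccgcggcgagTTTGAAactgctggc
Plk1 upstream: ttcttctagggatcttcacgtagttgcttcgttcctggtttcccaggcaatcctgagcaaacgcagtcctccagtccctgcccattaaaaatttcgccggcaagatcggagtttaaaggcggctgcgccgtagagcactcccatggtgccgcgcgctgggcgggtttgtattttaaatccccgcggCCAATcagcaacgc
Cenpa upstream: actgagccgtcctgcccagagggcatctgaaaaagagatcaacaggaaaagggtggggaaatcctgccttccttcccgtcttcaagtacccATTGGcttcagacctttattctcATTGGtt

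In Plk1, Aurka and Cenpa the single TTTGAA word lay shortly after the start of the RefSeq promoter. Its first base was at position 31 in Plk1, 33 in Aurka and 17 in Cenpa. The GENCODE starts of Aurka and Cenpa lie elsewhere, at 172370535 and 30666777. The TTTGAA sites are shown with the bases around them, at chr7:122159453-122159482 on the plus strand, chr2:172370521-172370550 on the minus strand and chr5:30666890-30666919 on the plus strand.
Plk1 site: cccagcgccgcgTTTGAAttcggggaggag
Aurka site: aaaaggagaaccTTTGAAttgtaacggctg
Cenpa site: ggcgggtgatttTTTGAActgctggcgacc

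TTTGAA was found on either strand in 32 of the 43 promoters, or 74.4%, against 17.9% of all 32851 promoters of the same length. CCAAT was found in 31, or 72.1%, against 37.4% of all promoters. Both words occurred together in 28, or 65.1%, against 6.95%. Ect2 and Prc1 have 2 overlapping promoters each, so sites that these share were counted in both. The 42 TTTGAA matches lay close to the start, with a median position of -10 bases from it, and 20 of them began after it. The 70 CCAAT matches lay further out, with a median position of -69.5 bases, and 68 of them began before the start. A promoter had more than 1 CCAAT match in 20 cases, and Ube2c had 6. E2F sites, which mark genes of the start of DNA replication, were searched as TTCCCGC or TTCGCGC or TTGCCGC or TTGGCGC on both strands. They were found in 10 promoters, or 23.3%, against 9.57% of all promoters, and 3 of the 11 matches overlapped an ATTGG or CCAAT match. The overlap in Ect2 was counted in both of its promoters. A match of letters is not a bound site, and the absence of one covers only this window.

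**Figure D2:**
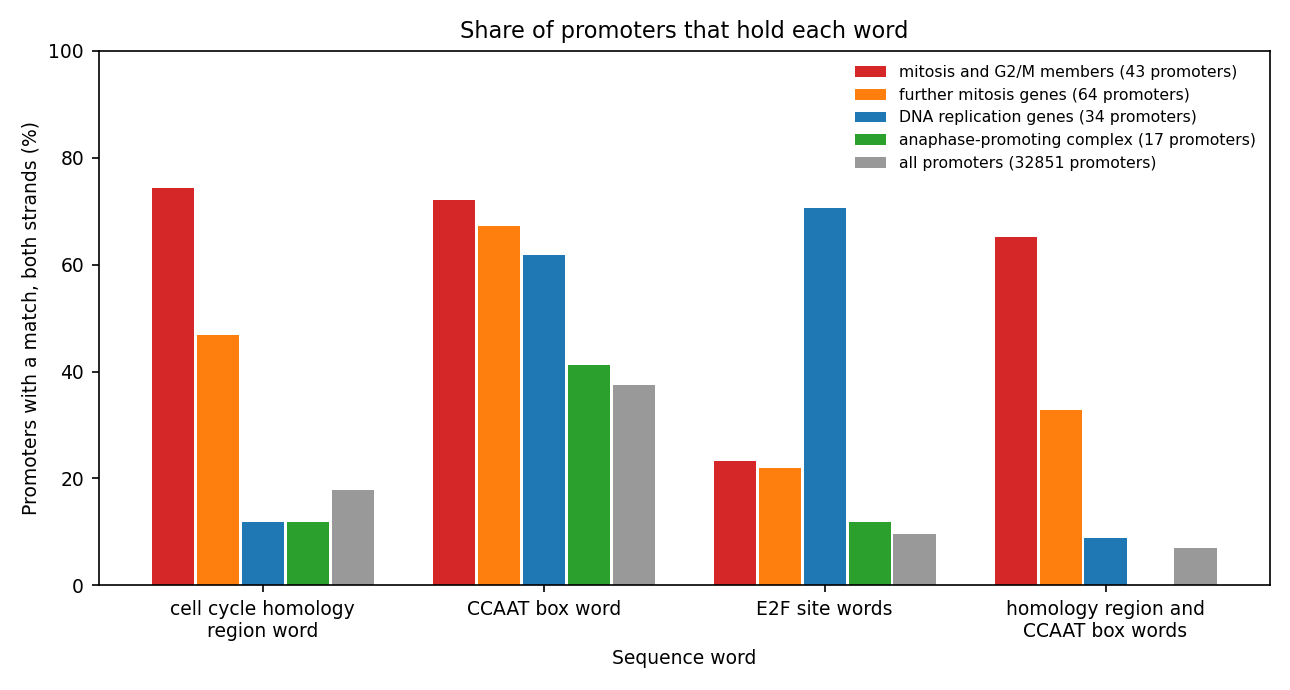
Bars give the percentage of promoters that hold each word on either strand, for the mitosis and G2/M genes (43 promoters), 3 other lists of cell division genes and all 32851 promoters. The bar of the mitosis and G2/M genes stands at 74.4% for TTTGAA against 17.9% for all promoters, while DNA replication genes stand at 70.6% for the E2F words.

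**Figure D3:**
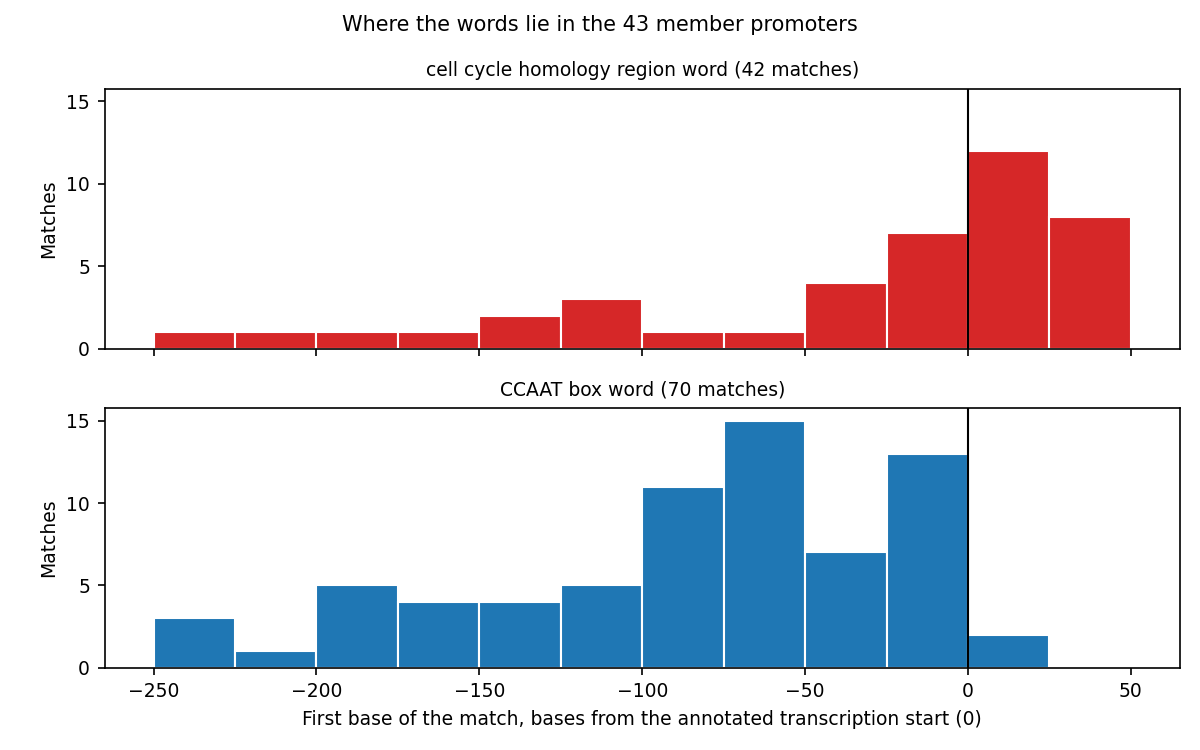
Histograms count matches of TTTGAA (upper, 42 matches) and CCAAT (lower, 70 matches) by the distance of their first base from the annotated start, in the 43 promoters. TTTGAA matches gather around the start, and CCAAT matches lie mostly before it. Sites shared by the 2 promoters of Ect2, or of Prc1, count in both.

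Within the module, TTTGAA was not more frequent among the genes with higher values. Among genes at 1 or more, 10 of 15 promoters held TTTGAA, and among genes under 1, 22 of 28 did. Aurka and Cenpa, whose values were low, held both TTTGAA and CCAAT. Ccnb1 held CCAAT words 99 and 67 bases upstream of its start and no TTTGAA in this window. Birc5, Melk, Nusap1, Nuf2 and Mad2l1 had none of the words in this window and values of 1.15, 1.10, 1.05, 0.94 and 0.66 in the authors' deposited table. Pttg1 had none either, but its listed start lies 1482 bases inside the gene's most upstream annotated start. The same held at over 100 bases for 9 of the 43 promoters, those of Pttg1, Kif2c, Cdca8, Cdca3, Kif4, Aurka and Cenpa and both of Ect2. The listed start of Mad2l1 (66535221) lies instead before its GENCODE start (66535390), which the window does not reach. Other genes at 0.5 or more in the authors' deposited table held TTTGAA in 14.8% of 765 promoters, and genes at -0.5 or below in 12.1% of 239.

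Cyclins, their kinase and its activators all lay at 0.5 or more. Ccna2, the cyclin of S and G2 phase (chromosome 3, 36564865 to 36572150 in GRCm38, as are the spans that follow), is listed at 1.26, rank 88, in the authors' deposited table. The B-type cyclins Ccnb2 and Ccnb1, which drive entry into mitosis, are listed at 1.10 and 0.93 in the authors' deposited table. Their partner Cdk1 (chromosome 10, 69335146 to 69352938) is listed at 0.95, rank 219, in the authors' deposited table. Foxm1, the transcription factor that switches on many G2 genes, had 0.98, and Cdc25c, a phosphatase that activates CDK1, had 0.68 in the authors' deposited table. Across the module 49 of 50 genes were positive and 94.0% reached 0.5, so the shared side does not set these genes apart.

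The mitotic kinases spanned a wide range. Melk, an AMPK-related kinase of dividing cells, and Bub1, a kinase of the spindle checkpoint, had 1.10 and 1.04 in the authors' deposited table. Aurkb, the kinase of the chromosomal passenger complex, had 0.95, and its partners Birc5 (survivin), Cdca8 (borealin) and Incenp had 1.15, 0.83 and 0.66 in the authors' deposited table. Bub1b, which encodes the checkpoint protein BubR1, and Ttk, the kinase that starts checkpoint signalling, had 0.75 and 0.74 in the authors' deposited table. Plk1, the Polo kinase of centrosome maturation and mitotic entry, stood at 0.63 in the authors' deposited table. Aurka, the Aurora kinase of the spindle poles, is listed at 0.29, rank 2731, in the authors' deposited table. The 2 Aurora kinases of the list were thus on the same side but far apart by score.

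Genes of the spindle checkpoint and of the exit from mitosis included the single gene with a negative value. Cdca3, which encodes a mitotic entry factor that is degraded in G1, had 1.14 in the authors' deposited table. Ube2c, the ubiquitin-conjugating enzyme of the anaphase-promoting complex, had 0.98, and Cdc20, the activator of that complex, had 0.81 in the authors' deposited table. Espl1, the protease separase that cuts cohesin, had 0.86, and Mad2l1, which holds CDC20 inactive, had 0.66 in the authors' deposited table. Pttg1, which encodes securin, the inhibitor of separase (chromosome 11, 43420250 to 43426251), is listed at -0.08, rank 9536, in the authors' deposited table. Separase and its inhibitor therefore stood at opposite signs, although the value of Pttg1 was close to 0.

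Centromere and kinetochore genes followed the module except for the centromeric histone. Cenpf and Cenpe, large proteins of the outer kinetochore, had 1.21 and 1.03 in the authors' deposited table. Nuf2, Ndc80 and Spc25, subunits of the complex that grips spindle microtubules, had 0.94, 0.82 and 0.53 in the authors' deposited table. Spc25 was the lowest value still at 0.5 or more, and the next below it was Aurka. Cenpa, the histone H3 variant that marks centromeres, is listed at 0.24, rank 3541, in the authors' deposited table.

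All 7 kinesin motors lay at 0.5 or more, as did 94.0% of the module and 3.77% of all genes. Kif11, the motor that pushes spindle poles apart (chromosome 19, 37376403 to 37421859), led with 1.24, rank 91, in the authors' deposited table. Kif4, a motor of chromosome arms and the central spindle, and Kif15, which supports the bipolar spindle, had 1.11 and 1.07 in the authors' deposited table. Kif23 and Kif20a, motors of the central spindle and cytokinesis, had 0.97 and 0.81 in the authors' deposited table. Kif2c, which takes microtubules apart at centromeres, and Kif22, a motor that binds chromosomes, had 0.84 and 0.74 in the authors' deposited table.

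Spindle, cytokinesis and chromosome structure genes completed the module. Stmn1, which encodes the microtubule-destabilising protein stathmin, had 1.25 in the authors' deposited table. Tpx2, which activates Aurora A on the spindle, and Nusap1, a spindle microtubule protein, had 1.11 and 1.05 in the authors' deposited table. Prc1, which bundles central spindle microtubules, Tacc3, a microtubule-stabilising protein, and Hmmr, a spindle pole protein and hyaluronan receptor, had 0.79, 0.73 and 0.61 in the authors' deposited table. Racgap1, Anln and Ect2, which set up and scaffold the contractile ring, are listed at 1.11, 1.06 and 0.73 in the authors' deposited table. Role groups thus overlapped in their values, with medians from 0.75 for the mitotic kinases to 1.06 for cytokinesis.

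Mki67, which encodes the proliferation antigen Ki-67 that coats mitotic chromosomes (chromosome 7, 135689784 to 135716361), had the highest value of the module, 1.63, rank 32, in the authors' deposited table. Top2a, the topoisomerase that untangles sister chromatids (chromosome 11, 98992943 to 99024189), followed with 1.55, rank 46, in the authors' deposited table. Both stood apart from the third gene, Ccna2. The condensin subunits Ncapg, Ncaph, Smc2 and Smc4 had 0.95, 0.90, 0.77 and 0.70 in the authors' deposited table. Smc2 and Smc4, the ATPase subunits that condensin I and II share, were thus the lower pair.

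Some of the genes lie head to head with another gene, so that a short stretch of DNA separates the starts. Protein-coding neighbours on the other strand, with a start at most 1000 bases upstream or 500 bases inside, were found for 9 of the 50 genes. This comparison was chosen with the values of the module known. The neighbours reached 0.5 in 2 of 9 cases, against 3.77% of all genes, and the paired mitosis or G2/M genes in 8 of 9, against 94.0% of the module, in the authors' deposited table. Cdca3 stood at 1.14 and Usp5, a deubiquitinating enzyme gene with a start 63 bases away, at -0.04 in the authors' deposited table. Kif20a stood at 0.81 and Brd8, a bromodomain gene with a start 12 bases away, at -0.01 in the authors' deposited table. Foxm1 stood at 0.98 and Rhno1, a gene of the DNA damage checkpoint listed as 5930416I19Rik, at 0.15 in the authors' deposited table. Aurka stood at 0.29 and Cstf1, a polyadenylation factor gene 146 bases away, at -0.01 in the authors' deposited table. The neighbours at 0.5 or more were Oip5, a centromere gene beside Nusap1, with 0.58, and Ift80, a cilium gene beside Smc4, with 0.54 in the authors' deposited table. Oip5 and Nusap1 overlap by 172 bases, so the value of Oip5 may include reads of Nusap1, which was not tested.

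**Figure D4:**
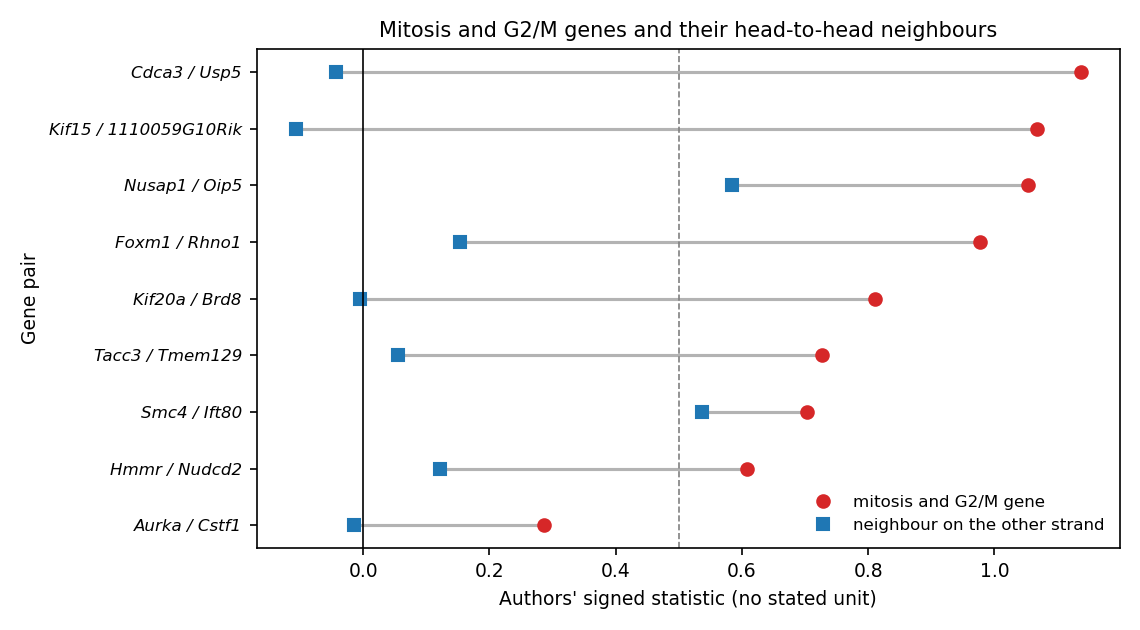
Each row is a pair of genes that start on opposite strands close to each other, with the authors' signed statistic on the horizontal axis, a circle for the mitosis or G2/M gene and a square for the neighbour. Squares pass the dashed line at 0.5 for Oip5 and Ift80, 2 of the 9 neighbours, where 3.77% of all genes lie; since 94.0% of the module lies there, a circle right of its square says nothing about the pair.

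Whether the counting used strand is not given in the sources used here, and reads of overlapping genes may be mixed. A protein-coding gene on the other strand overlaps 11 of the 50 genes in the GENCODE annotation. Of the 10 such genes in the authors' deposited table, 9 were under 0.3 in size, and the other was Oip5 at 0.58, which overlaps Nusap1. All genes had quartiles of -0.03 and 0.07 there, so most genes of the series were also under 0.3 in size. Whether reads of the overlapping genes were mixed was not tested. The share of all genes with such an overlap was not counted here. Prc1 lies wholly within the span of Rccd1, which stood at 0.11 in the authors' deposited table. Ncapg overlaps 3366 bases of Lcorl, at -0.23, and Kif20a overlaps 2327 bases of Cdc23, at 0.18 in the authors' deposited table. Annotated near copies exist for Ccnb1, Ccnb2, Kif4, Kif22 and Stmn1, so the values of these genes are less certain.

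Further genes of mitosis showed the same direction with more spread. Outside the module, 70 mitosis genes had a median of 0.57 in the authors' deposited table, with 65 positive and 43 at 0.5 or more. The largest values were 1.34 for the spindle gene Ckap2l, 1.29 for the kinetochore scaffold gene Knl1, listed as Casc5, 1.19 for the scaffold gene Iqgap3 and 1.17 for the cytokinesis kinase gene Cit in the authors' deposited table. Among the 5 negative genes, Zwint, a kinetochore gene, was lowest at -0.27, followed by the cyclin F gene Ccnf at -0.15, Mis12 at -0.09 and Bub3 at -0.04 in the authors' deposited table. TTTGAA was found in 46.9% of the 64 promoters of this list. The condensin subunit gene Ncapd2 had 1.40 and the condensin II genes Ncapd3, Ncaph2 and Ncapg2 are listed at 0.67, 0.26 and -0.28 in the authors' deposited table.

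The large complexes that mitotic regulators act through lay around 0. Of 15 genes of the anaphase-promoting complex and its activator Fzr1, 7 were positive, 8 were negative and none reached 0.5 in size, with a median of -0.02 in the authors' deposited table. Anapc5 at 0.44 and Anapc10 at -0.18 were its extremes in the authors' deposited table, while Ube2c and Cdc20, which work with the complex, stood at 0.98 and 0.81. Of 10 cohesin genes, 5 were positive, 5 were negative and none reached 0.5 in size, from Wapl, listed as Wapal, at -0.26 to Smc1a at 0.36 in the authors' deposited table. Espl1, whose product cuts cohesin, stood at 0.86. TTTGAA was found in 2 of 17 promoters of the first list and 1 of 8 of the second.

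Most DNA replication and G1 genes lay on the same side as the module, while genes of the DREAM and MuvB complexes mostly had small values. The 36 DNA replication genes had a median of 0.63 in the authors' deposited table, 35 on the positive side and 24 at 0.5 or more, led by the DNA methylation maintenance gene Uhrf1 at 1.18, the polymerase gene Pole at 1.05 and the ribonucleotide reductase gene Rrm2 at 1.04. Their promoters held TTTGAA in 11.8% and the E2F words in 70.6% of 34 cases, the reverse of the order in the mitosis and G2/M genes. Of 13 cyclin and kinase genes of G1, 12 were positive and 6 reached 0.5, with cyclin D2, Ccnd2, at 1.65 and the activating factor E2f2 at 0.98 in the authors' deposited table. Rb1, the retinoblastoma gene, was the negative one at -0.18 in the authors' deposited table. Of 11 genes of the DREAM and MuvB complexes, 10 were positive, with a median of 0.08. The 2 that reached 0.5 were Rbl1 at 0.74 and Tfdp2 at 0.60, and Lin52 stood at -0.35 in the authors' deposited table.

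Inhibitors of the cycle were divided. The median of 11 CDK inhibitors and antiproliferative genes was 0.19 in the authors' deposited table, 7 being positive and 4 negative. Cdkn1a, which encodes the inhibitor p21, is listed at -0.51, rank 1093, and the p53 target Ccng1 had -0.36 in the authors' deposited table. Btg2, an antiproliferative gene, had 0.74, and Cdkn2c, an inhibitor of CDK4 and CDK6 that is itself raised in cycling cells, had 0.53 in the authors' deposited table. Cdkn1a was the single gene of the 170 in these other lists at -0.5 or below.

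**Figure D5:**
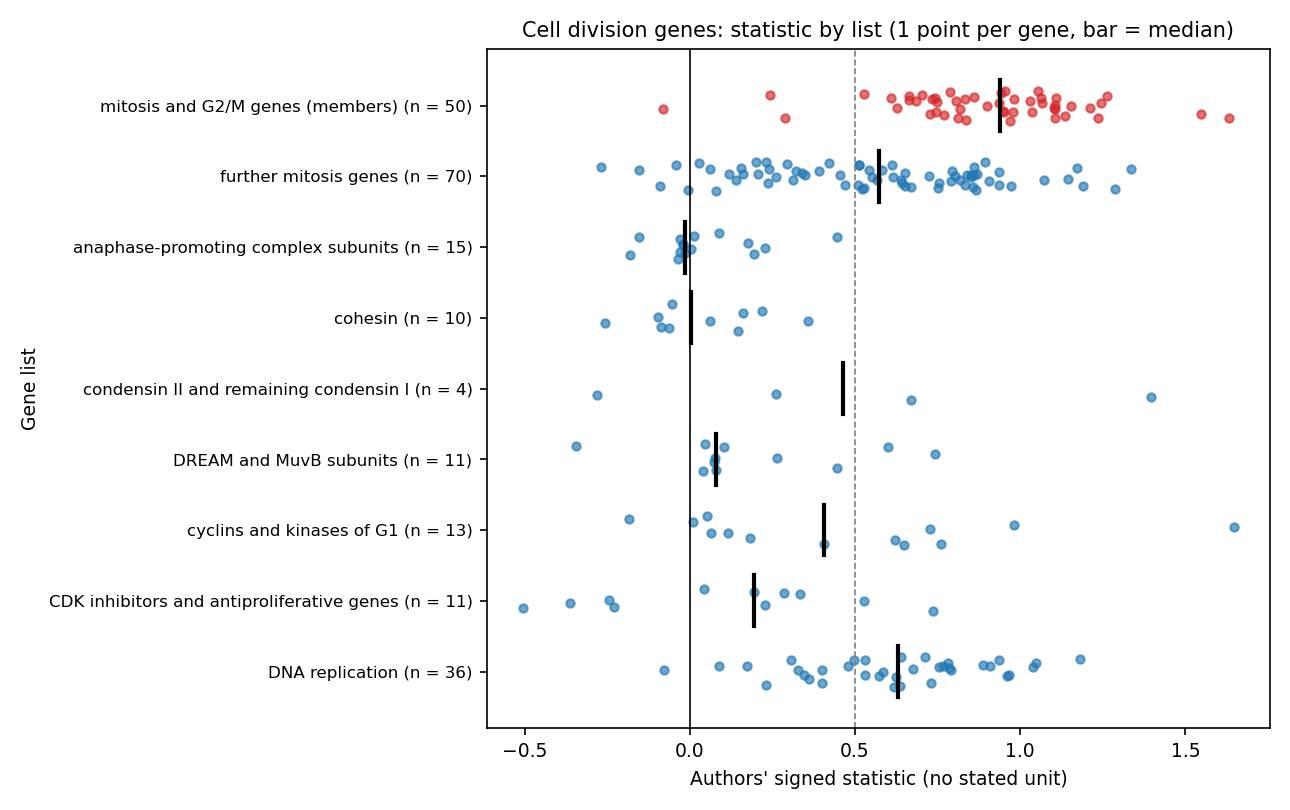
Each point is a gene, placed by the authors' signed statistic on the horizontal axis and by list on the vertical axis, with a bar at the median of the list and lines at 0 and 0.5 (dashed). The mitosis and G2/M genes have a median of 0.94, further mitosis genes 0.57 and DNA replication genes 0.63, while the anaphase-promoting complex and cohesin lie around 0.

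Markers of fibroblasts and dendritic cells lay on the side of the module, and lists of other cell types were divided or lay closer to the middle. All 8 fibroblast markers were at 0.5 or more, with a median of 1.50, led by Col1a1 at 2.14, Col3a1 at 2.03 and Col1a2 at 1.99 in the authors' deposited table. The 8 dendritic cell markers were all positive, 6 of them at 0.5 or more, and had a median of 1.50, with Ccr7 at 2.84 and Dpp4 at 1.76 in the authors' deposited table. Of 8 macrophage markers, 7 were negative, with a median of -0.24 and Fcgr1, Cd68 and Lyz2 at -0.79, -0.68 and -0.53, while Csf1r stood at 0.25 in the authors' deposited table. No macrophage marker was listed at 0, but their levels in each library were not analysed here. The part of fibroblasts or dendritic cells in the values of the mitosis and G2/M genes was not tested. Among erythroid markers, Alas2 stood at -0.15, and Hba-a1 and Hbb-b1 were listed at 0, in the authors' deposited table. Of 5 T cell markers, Cd3e and Cd3g were listed at 0 and the largest was Cd4 at 0.22, and of 4 NK cell markers Ncr1 was listed at 0 and the largest in size was Eomes at -0.11 in the authors' deposited table. Of 4 B cell markers the largest in size was Cd79b at -0.24, and of 4 neutrophil markers found S100a8 had 0.54 in the authors' deposited table. Of 5 endothelial markers 3 were negative, with Kdr at -0.57, and of 4 cardiomyocyte markers all were positive, with Tnnt2 at 0.53 in the authors' deposited table.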

How the data were processed

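RNA was sequenced from 1 Ly6Chi and 1 Ly6Clo library. CASAVA 1.8.2, TopHat and mm10 are named per the submitters' processing notes. How reads were counted, with which annotation and strand setting, is not given in the sources used here. Per the file headers, the table deposited by the authors holds a signed statistic, read as a score, and a ranking, which matched the rank of its size to within 1e-06 for 23284 of 23284 genes. Another 2 columns, with values by library, stayed unused because their names match no sample label, so normalized levels, intervals and depth were not computed. Genes were matched by symbol, or by a single older symbol in RefSeq (GRCm38.p6), as for 12 genes of the other lists; Ly6g was not matched. Of the symbols, 20723 were current, 2278 older and 283 unmatched. Gene spans and neighbours came from GENCODE release M21 (GRCm38) and promoters from RefSeq. Scores of 0.5 and 1 were used to count genes and carry no error rate. The 50 genes and all lists were chosen with earlier results of these data known. Every one of the 50 was named; of the other cell division lists up to 4 genes with the largest size on each side, and of each marker list up to 3, could be named, and in the text fewer are given. Csf1r, Rccd1, Lcorl, Cdc23 and the head-to-head neighbours were named outside that rule. A single gene of the marker lists is left out of the text and is not reported here. Counting and word searches were tested on simulated data. Printed windows hold at most 30 bases after the most upstream annotated start. Work was done in Python 3.11.15 with pandas 2.3.3 and NumPy 2.4.6, and plots in Matplotlib 3.10.9.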

Additional observations from a re-analysis of the deposited data

How the results depend on the processing

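No paired analysis was possible because there is a single library of Ly6Chi and a single library of Ly6Clo cells; without either, nothing can be compared. The planned changes of scaling, pseudocount and low-count filter rest on the unused columns and were not run. At a size of 1 in place of 0.5, the count of mitosis and G2/M genes on the positive side went from 47 to 18 and that of the 170 other cell division genes from 79 to 11, with none of the latter left on the negative side. At a size of 0.25 the counts were 48 and 105, and 6 of the 170 were negative in place of 1. With a minimum size of 0.1, 0 genes of the module were negative, since Pttg1 drops out, and 49 stayed positive. Among genes with a value other than 0, the background of positive genes was 57.7% in place of 40.4%. The mean of the module was 0.90 and the median of genes of at least 0.1 was 0.94. On the strand of the gene alone, the words TTTGAA and CCAAT, the E2F words, and the pair of TTTGAA with CCAAT were found in 58.1%, 48.8%, 9.3% and 32.6% of the module's promoters, against 10.2%, 21.1%, 5.09% and 2.2% of all promoters. Among promoters of protein-coding genes these backgrounds were 16.0%, 38.2%, 12.1% and 6.38% on both strands. The backgrounds of genes other than 0 and of protein-coding promoters, and a count of 1 promoter per gene, which gave 73.2% for TTTGAA, were chosen after seeing the data.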
